A study of Arabidopsis thaliana with 2 samples.

Results

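Among the transcripts of Arabidopsis thaliana pollen tubes, a set stood at least 8-fold higher in the drop double mutant than in wild type, and it is described here gene by gene. The study sequenced 1 library of wild-type tubes (WT) and 1 library of tubes with the genotype drop1- drop2- (drop, also called the mutant below), both grown semi in vivo, which means that the tubes emerge from a cut style onto solid medium. About 500 to 600 hand-picked grains were placed on each stigma, 36 h after emasculation, and tubes reaching 300 to 400 µm beyond the style were cut off, pooled from 2 stigmas and made into a Smart-seq2 library of polyadenylated RNA. The treatment field mentions double mutant grains in both cases, and genotypes were therefore taken from the genotype labels. The title of the series is about sperm cells as cargo of the tube.

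Members were chosen from the deposited table of FPKM (fragments per kilobase, corrected for the number of mapped fragments) as the rows with at least 20 FPKM in drop and a ratio (drop FPKM + 1)/(WT FPKM + 1) of at least 8. This gave 102 of the 33557 rows in the table. The rule applied to 0.304% of all rows used and to 5.33% of the 1913 rows with at least 20 FPKM in drop. The same values chose the members and describe them, and each genotype has 1 library, so no test was run, no value has a replicate error, and "higher" below compares these 2 libraries.

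As background, the growing pollen tube is a single large vegetative cell that carries a pair of sperm cells. It extends at its tip by secreting wall material, above all pectin and the enzymes that modify it, and it releases many small cysteine-rich peptides, among them RALF peptides that signal through receptor kinases at the tube surface. Actin filaments move vesicles and organelles along the tube, and microtubules lie beside them. Pollen tubes also draw on sugar transporters, ion transporters and lipid enzymes to build new membrane while they grow.

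In WT the 102 members had a median of 3.59 FPKM, with 20 listed at 0 and the highest at 3375. In drop they had a median of 90.6 FPKM, from 20.2 to 27556. The median log2 ratio with 1 added to each FPKM was 3.84, with a range of 3.03 to 10.52, and over all rows with at least 20 FPKM in drop it was 1.49. The 82 members above 0 in WT had a median fold of 14.4 in FPKM. Together the members made up 0.752% of all FPKM in WT and 2.60% in drop. The 5 members with the highest drop values made up 73.5% of the members' sum in drop and 81.6% in WT. Most of the set was therefore faint in WT. Below 5 FPKM in WT lay 55 members, those listed at 0 included, a further 28 lay from 5 to below 20, and 19 reached at least 20 FPKM there.

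**Figure D1:**
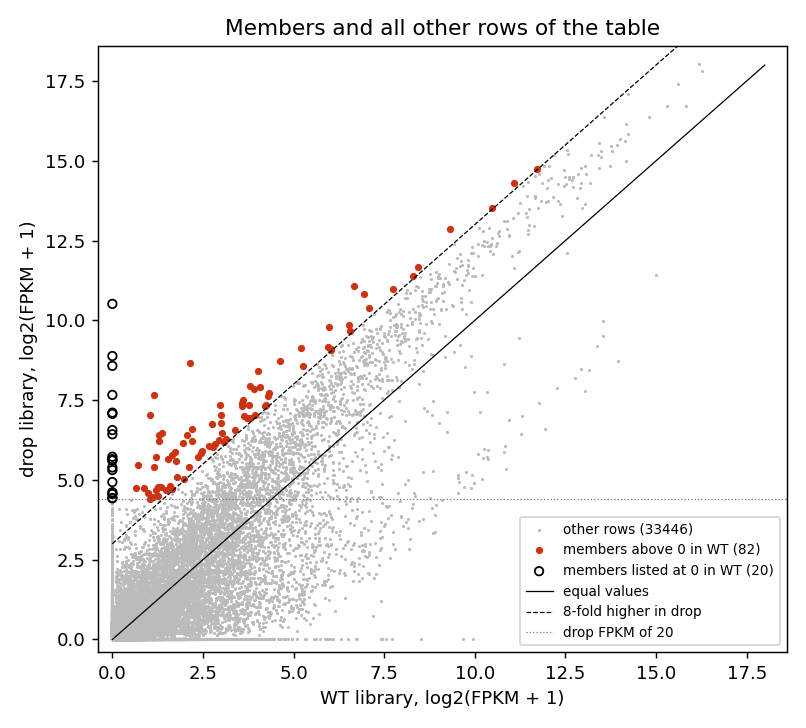
Each point is a row of the table, with log2(FPKM + 1) in WT on the x axis and in drop on the y axis. The 102 members lie above the dashed 8-fold line and the dotted level of 20 FPKM in drop. The 20 members listed at 0 in WT (open circles) stand on the left edge, up to the 1464 FPKM of LCR83.

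The deposited columns differ in total. The WT column summed to 1299600 FPKM and the drop column to 3668030, 2.82 times as much, and the median log2 ratio over rows with at least 20 FPKM in drop was 0.03 once both libraries were set to equal sums. At equal sums 61 members stayed past 4-fold and 28 past 8-fold. All 102 stayed past 2-fold, which the choice of members at 8-fold fixes for a factor of 2.82. Over the 1913 rows, 13% were past 2-fold and 1.46% past 8-fold at equal sums, and since the rule used these values nothing is read from the comparison. As deposited, 67.9% of those rows were at least 2-fold higher. After quantile normalization 77 members stayed past 8-fold, and 4.13% of those rows did so, with 46.7% past 2-fold. The lowest log2 ratio of any member was 1.53 at equal sums and 1.44 after quantile normalization. The 28 members past 8-fold at equal sums were the 20 listed at 0 in WT and 8 with WT values below 5 FPKM. For the 20 listed at 0, the level of at least 20 FPKM in drop fixes this outcome at a factor of 2.82, so nothing is read from it. No member at 5 FPKM or more in WT stayed past 8-fold at equal sums.

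**Figure D2:**
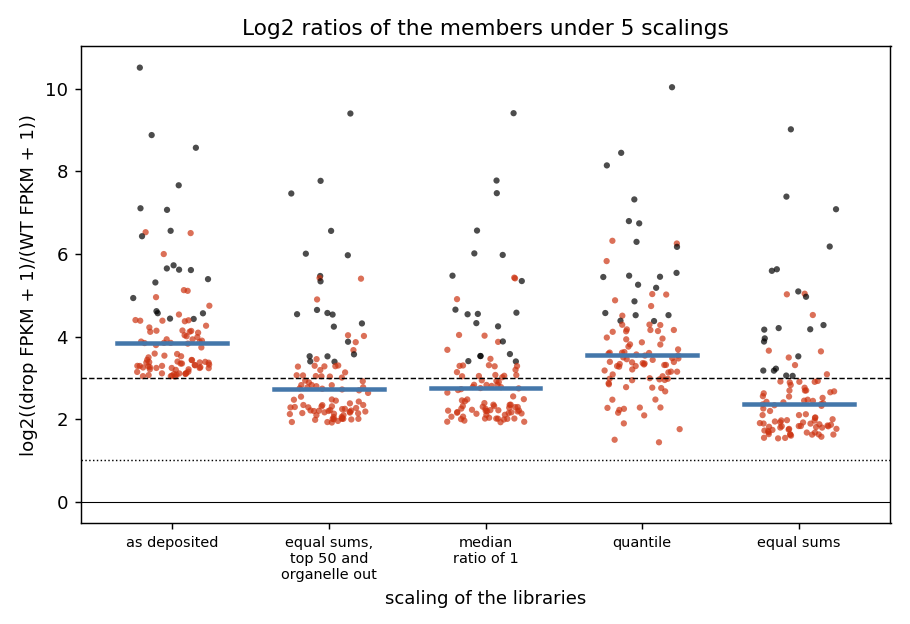
Log2((drop FPKM + 1)/(WT FPKM + 1)) of the 102 members under 5 scalings of the libraries, with a blue line at each median and black points for the 20 members listed at 0 in WT. The dashed line marks 8-fold and the dotted line 2-fold. The medians run from 3.84 as deposited to 2.36 at equal sums, and all points lie above 2-fold.

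Small peptides were the most abundant members. Of 17 families defined by words in gene descriptions, the signalling and cysteine-rich peptides held 13 of the 102 members (12.7%), against 80 of the 1913 rows with at least 20 FPKM in drop (4.18%). Adding GASA1 and RTFL8, which the words did not catch, 15 members encode small peptides. Their drop values ranged from 20.5 to 27556 FPKM, and 7 of the 15 were listed at 0 in WT.

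The highest drop value of the whole set belonged to RALFL12 (AT2G19040), a RALF-like peptide gene with 3375 FPKM in wild type and 27556 in the mutant, an 8.16-fold difference. It was also the member nearest to the threshold. RALFL6 and RALFL7, below the threshold, stood at 3247 and 19209 FPKM in wild type and 23482 and 138872 in the mutant. Across the RALF-like genes reported here, 16 reached 10 FPKM in a library, of which 10 were higher by 2-fold or more and 4 lower by as much in the mutant. RALFL20 at 24.0 FPKM and RALFL18 at 13.6 in WT were listed at 0 in drop, so the family went both ways. At equal sums 3 of the 16 were higher and 5 lower by 2-fold or more. Over all 3624 rows with at least 10 FPKM in a library, 45.3% were higher and 28% lower by 2-fold or more as deposited. At equal sums these shares were 8.64% and 43.5%. The same shares stand beside each family count at this level below.

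Thionin-family peptides are short cysteine-rich proteins, and 3 of them were members. AT1G21925 was at 2174 FPKM in wild type and 20066 in the mutant, AT1G21835 at 642 and 7461, and AT1G34930 at 101.6 and 2140, which is 21.1-fold higher. Of the 22 thionin rows with at least 10 FPKM in a library, 20 were at least 2-fold higher in drop as deposited and 13 at equal sums. The other 2 were lower on both scales, AT1G30974 at 177 and 80.7 FPKM and AT1G30972 at 117.3 and 6.71. Their median log2 ratio was 2.69, against 0.81 over all 3624 rows that passed this level, of which 45.3% were at least 2-fold higher as deposited and 8.64% at equal sums. In the other direction 28% of these rows passed 2-fold as deposited and 43.5% at equal sums. AT1G21864 and AT5G34828 fell just short of 8-fold, with 684 and 4654 FPKM in WT and 5434 and 36837 in drop. Short genes with close copies can share fragments, so single thionin values are uncertain.

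Defensin-like peptides share the cysteine pattern of antimicrobial defensins, and plants use relatives of them as signals between pollen and pistil. AT5G08055 was at 1434 FPKM in wild type and 11803 in the mutant, or 8.23-fold higher. The defensin-like genes AT1G64195 and AT2G22807 were listed at 0 in WT and at 49.2 and 20.5 FPKM in drop, and the cysteine-rich gene AT3G04545 was at 0 and 22.6. The plant defensin gene PDF1.5 (AT1G55010) was at 0 and 47.9. Among 13 rows described as defensin-like with at least 10 FPKM, 10 were higher by 2-fold or more and 2 lower by as much in the mutant. AT5G51845, at 66.8 FPKM in wild type and 0 in the mutant, was 1 of those lower. At equal sums 5 of the 13 were higher and 3 lower.

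LCR83 (AT5G54225) had the largest log2 ratio of the rows used here, 10.52. It encodes a small secreted cysteine-rich protein related in sequence to the pollen coat proteins, and it was listed at 0 FPKM in wild type and at 1464 in the mutant. Its annotated transcript of 337 bases is short, but its drop value was 830 times the low end of like-sized rows, defined as the 10th percentile of the values above 0 in rows within 10% of its length with a single annotated transcript. The 5 other genes named LCR that reached 10 FPKM were present in both libraries. The most abundant, LCR15, was at 1027 and 2683 FPKM, the lowest in drop, LCR11, at 19.8 and 21.6, and LCR1, the next in log2 ratio, at 7.90 and 45.9. Of the 6, 4 were at least 2-fold higher and 0 lower as deposited, and at equal sums 1 was higher, LCR83, and 1 lower.

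Proteins of the self-incompatibility S1 family are small secreted proteins named after the stigma protein that rejects own pollen in poppy. AT3G44170 was at 121.9 FPKM in wild type and 1805 in the mutant, and AT4G16195 was listed at 0 and at 20.6. Of 22 family rows with at least 10 FPKM, 17 were higher by 2-fold or more and 2 lower by as much in the mutant, but at equal sums these counts were 3 and 3. AT4G16195 lies whole within the span of the cysteine protease gene AT4G16190 on the opposite strand, which was at 7.44 and 24.4 FPKM, so fragments of the pair may not be told apart.

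Other peptide genes were faint in WT. GASA1 (AT1G75750), a gibberellin-responsive cysteine-rich peptide gene, was at 1.06 FPKM in wild type and 131 in the mutant, 123-fold higher. CLE20 (AT1G05065), of the CLAVATA3-type ligands that act on receptor kinases in meristems, was at 0 and 22.7. RTFL8 (AT2G39705), of a family of small polypeptides that alter organ shape when overexpressed, was at 15.2 and 340.4 FPKM. The rule fixes that all 3 lie far apart in the 2 libraries. CLE20 lay near the level of 20 FPKM in drop, and GASA1 rests on about 6 estimated fragments in WT.

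**Figure D3:**
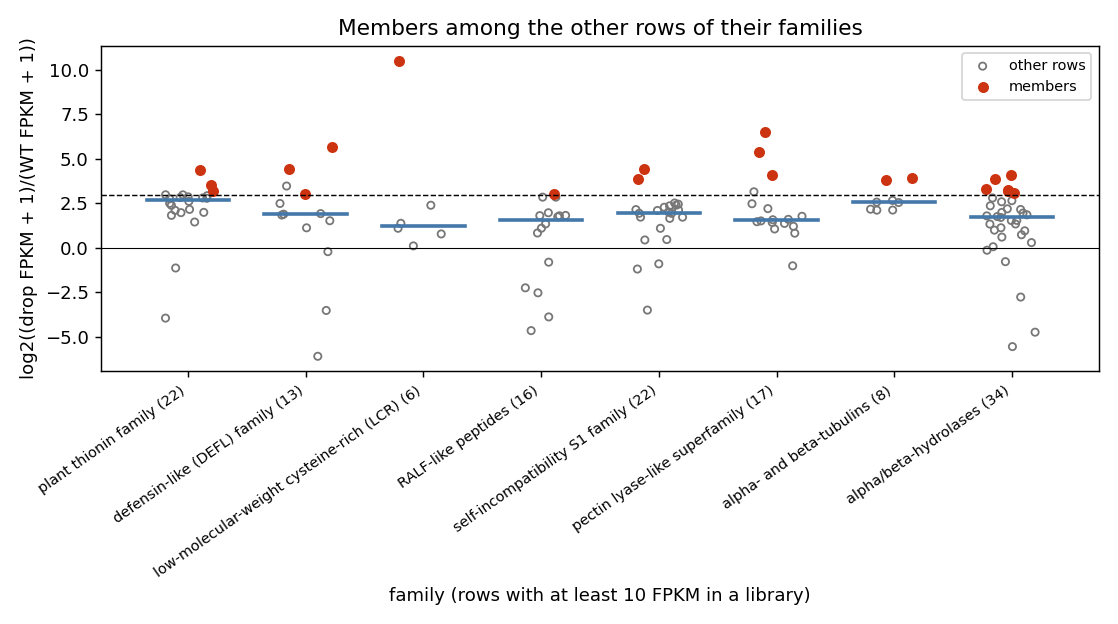
Log2((drop FPKM + 1)/(WT FPKM + 1)) of every row with at least 10 FPKM in a library in 8 families, with members as filled points, other rows as open circles, a blue line at the family median and a dashed line at 8-fold. All 8 tubulins lie between 2.12 and 3.93. Most thionins lie near their median of 2.69 with 2 rows below 0, LCR83 stands far above the rest of its family, and RALF-like and defensin-like rows spread on both sides of 0.

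Cell wall genes gave 9 members. The pectin lyase-like superfamily, whose fold is shared by polygalacturonases and other enzymes that cut or modify pectin, held 3 of them. AT2G40310 was at 3.41 FPKM in wild type and 405.6 in the mutant, 119-fold higher. AT4G13760 was at 23.6 and 425, and AT2G26620 was listed at 0 in WT and at 40.9 in drop. AT2G40310 and AT4G13760 have the same annotated transcript length of 1215 bases and the same coding length of 404 amino acids, and fragments may be shared between them. Of 17 superfamily rows with at least 10 FPKM, 15 were higher by 2-fold or more and 1 lower by as much in the mutant, and at equal sums 5 were higher and 1 lower. The most abundant of them, AT3G07820, was at 8550 and 24514 FPKM, a log2 ratio of 1.52. The 3 members stood at 23.6 FPKM or less in WT.

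Other wall genes were at low levels in WT. PRP4 (AT4G38770), a proline-rich protein of the cell wall, was at 1.46 FPKM in wild type and 84.7 in the mutant, and EXPA6 (AT2G28950), an expansin that loosens walls, at 2.0 and 27.3. The E6-like gene AT2G33850 was at 6.88 and 163.5 FPKM and the glycine-rich protein gene AT4G21620 at 12.6 and 161. Class III peroxidases, which cross-link wall polymers and make reactive oxygen, gave AT4G11290 at 2.86 and 71.0 FPKM and PRXCB (AT3G49120) at 1.91 and 49.4. Of 10 peroxidase rows with at least 10 FPKM, 6 were higher by 2-fold or more and 4 lower by as much in the mutant, with 4 and 4 at equal sums. The family words placed 3 members among pectin enzymes and inhibitors (2.94%, against 1.78% of rows with at least 20 FPKM in drop) and 3 among other cell wall proteins (2.94% against 3.55%).

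A group of 4 members was put together by hand, after their values were seen, from genes described in the phosphate response, and it has no share over all rows to set beside it. SPX1 (AT5G20150), a phosphate sensor that holds back the starvation regulator PHR1, was at 3.61 FPKM in wild type and 73.1 in the mutant. PEPC1 (AT1G17710), a phosphatase that frees phosphate from phosphoethanolamine and phosphocholine, was at 6.94 and 109 FPKM. GDPD2 (AT5G41080), a glycerophosphodiester phosphodiesterase of lipid breakdown, was at 11.2 and 181, and PHI-1 (AT1G35140), of the phosphate-responsive 1 family, at 19.1 and 209. Their folds lay between 11.0 and 20.3, and at equal sums 3 of the 4 stayed at least 4-fold higher.

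Lipid enzymes and hydrolases numbered 16 members, with WT values from 0.568 to 134.8 FPKM and drop values from 21.7 to 1326. This group was put together by hand with the values known, and it has no share over all rows to set beside it. The words for lipid enzymes matched 5 members (4.90%), against 3.71% of rows with at least 20 FPKM in drop. The words are loose: they matched GPAT6 and AT3G48180, but also the lipid transfer or lipid-binding genes AT3G22570, AT1G05450 and NTMC2T2.1. They did not match ADS2, LOX1 or XF1. The alpha/beta-hydrolases, a superfamily of esterases and lipases, gave 6: AT3G54240 was at 134.8 FPKM in wild type and 1326 in the mutant, AT4G14290 at 17.4 and 157.5, AT4G36610 at 2.37 and 47.5, AT3G56540 at 0.568 and 25.8, AT3G55190 at 1.38 and 21.7, and the lipase gene PLA-I{gamma}1 (AT1G06800) at 1.80 and 24.8. In the superfamily as a whole, 24 of 34 rows with at least 10 FPKM were higher by 2-fold or more and 3 lower by as much in the mutant. At equal sums the counts were 9 and 7.

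GPAT6 (AT2G38110), an acyltransferase of cutin assembly, was at 2.42 FPKM in wild type and 33.0 in the mutant. ADS2 (AT2G31360), a fatty acid desaturase, was at 0.848 and 26.1, and LOX1 (AT1G55020), a lipoxygenase, at 1.22 and 41.7. XF1 (AT1G58440), a putative squalene monooxygenase on the way to sterols, was at 18.5 and 197. These 4 enzymes act in separate branches of lipid metabolism, and each was above 0 in both libraries.

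The more abundant lipid-related members were PATL1 (AT1G72150), a patellin of membrane traffic at the cell plate, at 91.3 FPKM in wild type and 920.4 in the mutant, and the SGNH esterase gene AT3G11210 at 60.4 and 578. The synaptotagmin gene NTMC2T2.1 (AT1G05500) was at 12.04 and 122.1 FPKM. Lipid transfer-type genes gave AT3G22570 at 10.9 and 157 and AT1G05450 at 4.16 and 52.2, and AT3G48180, annotated as a phosphatidyltransferase, was at 6.07 and 68.1. Of 10 lipid transfer-type rows with at least 10 FPKM, 4 were higher and 1 lower by 2-fold or more in the mutant. At equal sums these counts were 2 and 3. The median log2 ratio was 3.32 for the 16 members, 0 of them listed at 0 in WT, and 4.43 for the 15 peptide genes, 7 of them listed at 0. The rule chose both groups by this ratio, and against a listed 0 it depends on the added 1. Nothing is therefore read from the difference.

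Cytoskeletal genes and a ROP partner formed a group of 5, and 4 of them were well above the median of the set in WT. The words for cytoskeleton and vesicle traffic matched 2 members (1.96%), against 5.12% of rows with at least 20 FPKM in drop. The alpha-tubulin TUA3 (AT5G19770) was at 61.8 FPKM in wild type and 891 in the mutant, and the beta-tubulin TUB7 (AT2G29550) at 35.8 and 561. All 8 tubulin rows with at least 10 FPKM were at least 2-fold higher in drop as deposited, from a log2 ratio of 2.12 for TUB4 upwards, and 5 of 8 at equal sums. The members TUA3 and TUB7, at log2 ratios of 3.83 and 3.93, lay above the next tubulin, TUB1, at 2.67. TUB7 overlaps RPC14 on the opposite strand, which was listed at 0 FPKM in wild type and 2.93 in the mutant.

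SP1L1 (AT1G26355), of the SPIRAL1 family of microtubule-associated proteins, was at 344 FPKM in wild type and 3246 in the mutant. NET2B (AT1G09720), of a family that links actin filaments to membranes, was at 64.9 and 540.4, and AT1G16520, annotated as an interactor of active ROP GTPases, was at 2.11 and 25.2. The group's log2 ratios ran from 3.04 to 3.93, and 2 of the 5 stayed past 4-fold at equal sums.

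Transporters gave 4 members. SAG29 (AT5G13170), a SWEET-type sucrose efflux carrier, was at 1.30 FPKM in wild type and 52.2 in the mutant, 40.3-fold higher. TMT1 (AT1G20840), which loads sugars into the vacuole, was at 5.41 and 65.7, the potassium transporter KT2 (AT2G40540) at 9.41 and 94.1, and the cation/proton exchanger CHX11 (AT3G44920) at 5.84 and 64.1. The transporter words matched 3 members (2.94%) against 5.80% of rows with at least 20 FPKM in drop, and they did not match SAG29.

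Hormone genes and regulators numbered 11, again put together by hand with the values known. The words for auxin and SAUR genes matched 2 members (1.96%), against 0.575% of rows with at least 20 FPKM in drop. The auxin-responsive genes SAUR28 (AT3G03830) and SAUR27 (AT3G03840) stand next to each other in the genome, and they were at 0 and 0.988 FPKM in wild type and 51.9 and 22.9 in the mutant. NIT1 (AT3G44310), a nitrilase that makes auxin from indole-3-acetonitrile, was at 4.46 and 56.4. ARR9 (AT3G57040), a response regulator of cytokinin signalling, was at 14.02 and 228. These 4 hormone genes were low in WT, while the SAUR-like gene with the highest level, AT3G43120, was at 235 and 433 FPKM and less than 2-fold apart. Of 8 SAUR-like rows with at least 10 FPKM, 5 were higher and 1 lower by 2-fold or more in the mutant. At equal sums these counts were 2 and 1.

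Among transcriptional regulators, CPC (AT2G46410), a small MYB protein that promotes root hair fate, was at 10.9 FPKM in wild type and 170.3 in the mutant. The MYB-like gene AT5G61620 was at 14.3 and 129.7, the B3-type gene AT5G46915 at 4.54 and 58.6, and the zinc finger gene AT5G04390 at 1.04 and 20.2. The words for transcription factors matched 2 members (1.96%) against 4.18% of rows with at least 20 FPKM in drop. The kinase gene AT3G24790 was at 37.6 and 379.8 FPKM, the protein phosphatase 2C gene AT2G25070 at 15.7 and 239, and AT1G53690, related to a shared subunit of RNA polymerases, at 11.5 and 127.7. The words for kinases and receptors likewise matched 2 members (1.96%), against 7.37% of rows with at least 20 FPKM in drop. The 2 were AT3G24790 and NET2B, and NET2B is annotated as a kinase-interacting protein, not as a kinase or receptor.

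Genes of protein turnover gave 5 members, a group put together by hand with the values known. The words for proteases and protease inhibitors matched 3 members (2.94%), against 1.88% of rows with at least 20 FPKM in drop. The subtilase gene AT4G21323 was at 93.6 FPKM in wild type and 819 in the mutant, the serpin CCP3 (AT2G25240), a protease inhibitor, at 6.72 and 74.3, and the phytocystatin CYS2 (AT2G31980), which inhibits papain-type proteases, at 0.638 and 43.0. The RING finger gene AT3G42940 was at 1.57 and 87.7. AT3G46220, annotated as a ligase for the ubiquitin-like protein UFM1, was at 12.9 and 122.6, while the heat shock gene HSP17.4 that overlaps it on the other strand went from 407 to 141. The words for F-box and ubiquitin genes matched 0 members among 61 rows with at least 20 FPKM in drop, and they did not match AT3G42940 or AT3G46220. Those for translation and ribosome genes matched 0 among 40. The median log2 ratios of these 61 and 40 rows were 1.08 and 0.30.

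A further 8 members are enzymes or membrane proteins. The alpha carbonic anhydrase ACA4 (AT4G20990) was at 310.5 FPKM in wild type and 2658 in the mutant. A pair of class I glutamine amidotransferase-like genes was in the set, AT2G23970 at 212.5 and 2040.5 FPKM and AT5G38200 at 17.9 and 161.5, and of the 5 family rows with at least 10 FPKM, 4 were higher and 1 lower by 2-fold or more. The lower one, GGP1, was at 57.1 in WT and 1.44 in drop. The calcium-binding annexin ANNAT3 (AT2G38760) was at 3.56 and 94.8, the remorin gene AT5G23750 at 12.9 and 243, AT4G15620 at 1.43 and 74.3, the PLAC8 gene AT5G41390 at 7.15 and 87.1, and the glutathione transferase GSTU3 (AT2G29470) at 3.36 and 41.3.

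**Figure D4:**
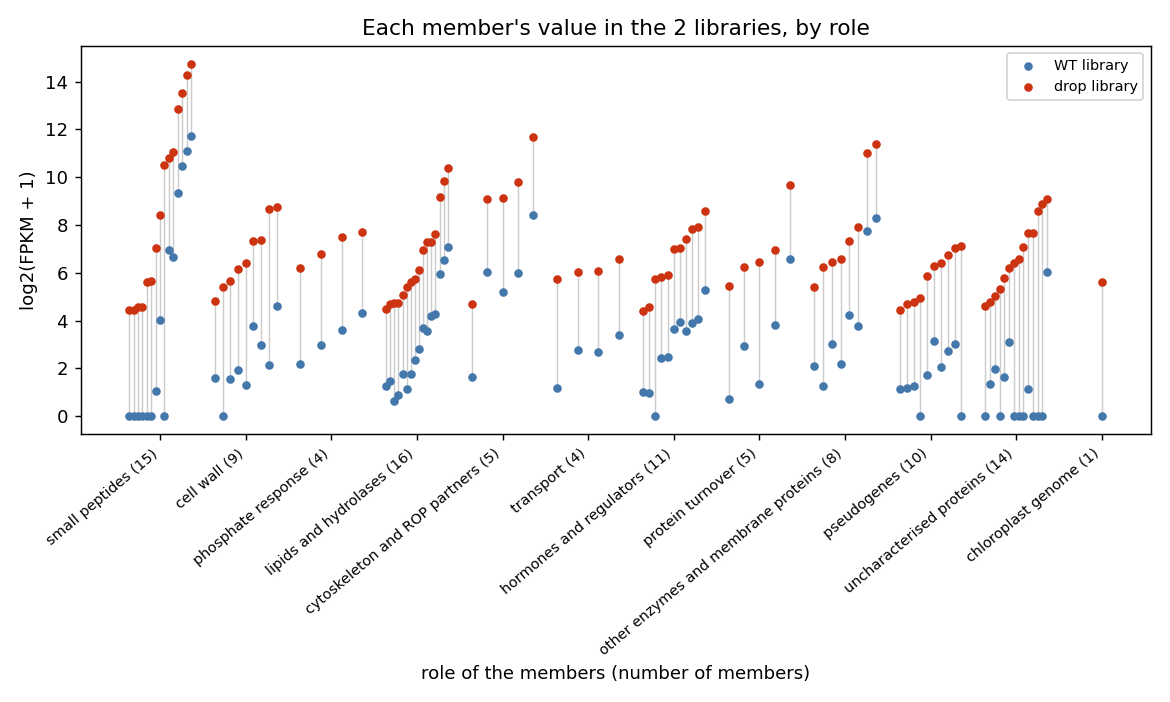
Log2(FPKM + 1) of each of the 102 members in WT (blue) and drop (red), joined by a grey line and grouped by role. Small peptides reach the highest levels in both libraries, up to 27556 FPKM in drop, while 8 of 14 uncharacterised proteins and 2 of 10 pseudogenes are listed at 0 in WT and the rest of these groups reach up to 64.4 FPKM there.

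Pseudogenes were frequent in the set. Of the 101 members found in the annotation used, 10 are annotated pseudogenes (9.90%), against 20 of the 1896 annotated rows with at least 20 FPKM in drop (1.05%). AT4G19310 was at 7.03 FPKM in wild type and 130.3 in the mutant, and its neighbour AT4G19320 at 1.30 and 24.9. AT1G35110 was at 5.73 and 105.7, AT5G36296 at 3.15 and 84.8, AT3G33145 at 7.74 and 76.2, AT1G52090 at 2.33 and 57.9, AT5G36030 at 1.41 and 26.7, and AT5G28970 at 1.17 and 21.1. AT5G34910 and AT1G04457, of 264 and 231 bases, were listed at 0 in WT and at 137 and 29.5 in drop. Pseudogene rows went both ways. As deposited, 20 of the 37 that reached 10 FPKM in a library were higher and 12 lower by 2-fold or more. The shares of all rows at that level were 45.3% and 28%. Of the 37 with at least 10 FPKM in a library, 11 were higher in drop and 11 lower by 8-fold or more as deposited. Of all rows at that level 3.95% were 8-fold higher, and 10 of the 11 higher pseudogenes are the members, chosen for being higher. The share of all rows 8-fold lower at that level is not given here, so nothing is read from the 11 lower. At equal sums 13 of the 37 were higher and 15 lower by 2-fold or more, against 8.64% and 43.5% of all rows. Of the 1840 rows of all kinds with at least 20 FPKM in WT, a level that favours rows high there, 18.2% were 8-fold lower in drop. Of the 16 pseudogenes among them, 0 were higher by 8-fold or more and 9 were lower by as much. AT1G55410, at 1010 FPKM in wild type and 28.9 in the mutant, and AT2G35743, at 816 and 0, were the most abundant of those.

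Uncharacterised proteins are encoded by 14 members, and 8 of these were listed at 0 in WT. AT3G28291 was at 471 FPKM in drop, AT3G19274 at 380.3, AT3G43291 at 202, AT3G15578 at 133, AT4G29548 at 93.5, AT5G04238 at 85.3, AT2G13547 at 38.7 and AT4G09890 at 23.5. AT5G14330 was at 1.21 in WT and 199.96 in drop, which at 165-fold was the largest fold among members above 0 in WT. This fold rests on about 5.4 estimated fragments in WT. The others were AT1G08790 at 64.4 and 546 FPKM, AT3G18215 at 7.50 and 71.6, AT2G41231 at 2.14 and 54.4, AT1G55365 at 2.92 and 31.5, and AT4G18395 at 1.54 and 26.5. The remaining member, ATCG01120, carries a chloroplast genome identifier and was listed at 0 in WT and at 48.2 in drop.

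Short transcripts were frequent in the set, above all among members listed at 0 in WT. The annotated transcript was shorter than 500 bases for 19 of 101 members (18.8%), against 4.91% of the annotated rows with at least 20 FPKM in drop, and for 10 of the 19 annotated members listed at 0 in WT. The median length was 1170 bases over the members and 1392.5 over those rows, and 587 over the members past 8-fold at equal sums. Of the 91 members with a coding sequence, 26 encode at most 100 amino acids (28.6%), against 12.8% of the rows with at least 20 FPKM in drop. A single exon was annotated for 31.7% of members and 20.5% of those rows.

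The lowest value that the table can hold depends on length, which bears on these short members. In drop, 6 of 141 rows with a single transcript of 150 to below 200 bases were above 0, and the lowest of these values was 85.3 FPKM, that of the member AT5G04238. AT3G15578, with 183 bases and 133 FPKM, stood at 1.22 times the low end of like-sized rows, and the pseudogene AT1G04457, with 231 bases and 29.5 FPKM, at 1.11 times. These 3 members lay within 3 times that low end, of 100 members for which it could be computed. AT3G28291, with 180 bases, stood at 4.31 times and AT5G34910 at 12.1 times. The same length class held the opposite pattern equally often, with 3 rows listed at 0 in WT and at least 20 FPKM in drop, and 3 rows listed at 0 in drop and at least 20 FPKM in WT. Over all lengths, 20 rows were listed at 0 in WT with at least 20 FPKM in drop (1.05% of rows at that level) and 39 the other way (2.12%). A listed 0 can be a failed estimate, so no fold is given against it.

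**Figure D5:**
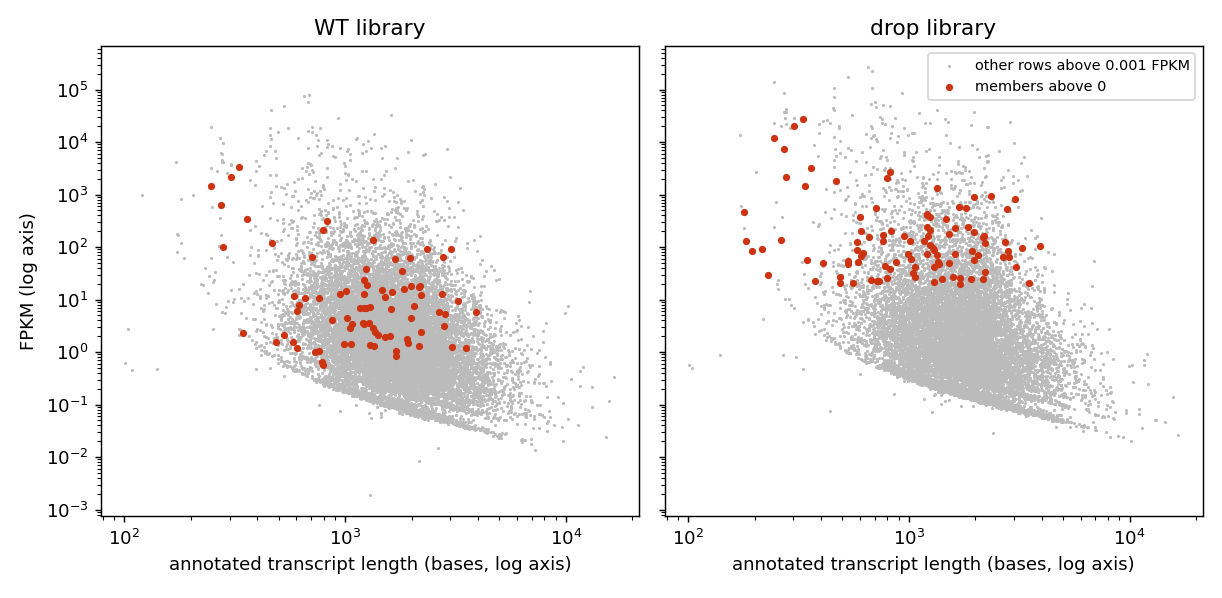
FPKM against annotated transcript length on log axes in each library, for rows above 0.001 FPKM (grey) and members above 0 (red). The lower edge of the grey cloud climbs towards short transcripts, and in drop AT3G15578, AT5G04238 and AT1G04457, of 183, 195 and 231 bases, lie at or near it. Other members as short do not, such as AT5G08055 with 246 bases at 11803 FPKM.

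In transcripts of at least 3 kb, the smallest step of the values put 1 fragment at 0.136 FPKM kb in WT and 0.244 in drop. On that scale 15 of the 82 members above 0 in WT rested on fewer than 20 estimated fragments there, and each of the 101 annotated members had at least 20 in drop, with a median of 493. These numbers are too high for the shortest transcripts, since their low end lies far above 1 such step. Fragments are not independent molecules, because no molecular identifiers were used.

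Members were spread over the genome. Chromosomes 1 to 5 held 25, 20, 23, 15 and 18 members, or 24.8%, 19.8%, 22.8%, 14.9% and 17.8%, against 24.6%, 16.5%, 21.4%, 14.7% and 22.9% of the annotated rows with at least 20 FPKM in drop. There were 2 pairs of adjacent members, SAUR28 with SAUR27 and the pseudogenes AT4G19310 with AT4G19320. The span of 22 members overlapped that of another gene in the table (21.8%, against 26.6% of those rows), and in 5 of these the other gene reached at least 10 FPKM in a library. Beside the AT4G16195 and AT3G46220 pairs, these were AT3G15578, which lies on the strand opposite APG8H (12.8 and 17.6 FPKM), AT2G41231 opposite ORS1 (2.81 and 23.8), and AT1G52090 opposite the pseudogene AT1G52087 (12.4 and 101.4). Whether the counting used strand is not given in the sources used here.

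Just inside the 8-fold threshold lay RALFL12 at a ratio of 8.16, NET2B at 8.21, AT5G08055 at 8.22, AT1G55365 at 8.30 and AT1G08790 at 8.36, with 1 added to each FPKM. Just outside lay the transglycosylase gene AT1G16290 at 33.0 FPKM in wild type and 271 in the mutant, a log2 ratio of 2.9999 with 1 added, AT2G17880 at 7.99, the transporter gene AT5G25430 at 7.95, and the thionin genes AT1G21864 at 7.93 and AT5G34828 at 7.91. On the level threshold, AT5G04390 at 20.2 FPKM in drop was the lowest member, and the galacturonic acid kinase gene GalAK at 19.7 FPKM, with 0.425 in WT, was the nearest row outside. Ratios thus continued across the threshold without a gap.

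Markers of the cell types in or near the sample gave 0 members. The 25 vegetative pollen tube markers summed to 37355 FPKM in wild type and 108564 in the mutant, or 2.87% and 2.96% of all FPKM, with 22 of the 24 that reached 10 FPKM at least 2-fold higher as deposited and the highest log2 ratio at 2.73. The 14 sperm markers summed to 51558 and 3451 FPKM, and all 10 that reached 10 FPKM were at least 2-fold lower in drop. The 10 green tissue markers summed to 136 and 18.4 FPKM, with 4 listed at 0 in drop. The 8 style and carpel markers summed to 49.4 and 70.9, of which HAF gave 43.8 and 55.1. BEE3 was at 0 and 8.50 FPKM and BEE1 at 2.67 and 6.02, while CRC was listed at 0 in both libraries and STK at 0 in WT and 0.343 in drop. NTT and SHP2 went the other way, at 0.977 and 1.53 FPKM in WT and 0 and 0.273 in drop, and SHP1 was at 0.448 and 0.568. In bulk RNA, fewer cells of a type and less RNA per cell cannot be told apart, and the part of these shifts in the members' ratios was not tested.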

How the data were processed

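The authors deposited FPKM values per gene, with a column for each of the 2 libraries according to the file headers. The submitters' processing notes list TopHat2 2.0.14 and Cufflinks 2.2.1 as tools and TAIR10 as the build. Parameters and gene models were not given in the sources used here, nor was any scaling of the columns. Because the drop column sums to 2.82 times the WT column, results were repeated under 4 rescalings. FPKM carry no depth, which was estimated from the smallest steps of the values.

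The ratio was log2((drop FPKM + 1)/(WT FPKM + 1)), which understates the ratio of low values. Fold values are ratios of FPKM. No test was run, since each group is 1 library. The members, families, roles and lists were chosen with earlier results of these data known. The naming rule took members by highest ratio, by highest drop FPKM, by family, by neighbourhood and by nearness to the threshold. It names 50 members, and the others, like the non-members given for context, were chosen after their values were seen so that each member is accounted for. In 2 word families, words that caught unrelated proteins (methionine enzymes, "interacting") were tightened afterwards. For 9 identifiers that the rule leaves out, values are not reported here.

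Symbols, descriptions, lengths, exons and gene order were read from RefSeq gene models on TAIR10.1, where 101 of the 102 members were found. This build differs from the authors' build, so no coordinates are given. Calculations used Python 3.11.15, pandas 2.3.3 and numpy 2.4.6, and the functions were tested on simulated data.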

Additional observations from a re-analysis of the deposited data

How the results depend on the processing

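No paired analysis was possible because there is only 1 library of each genotype. The 102 members became 28 with equal sums, 41 with the median-ratio scaling (genes of 10 FPKM or more in both libraries set to a median ratio of 1), 41 at equal sums when the 50 highest genes and organelle genes were left out of the sums, 39 with a pseudocount of 10, 162 with no filter on drop FPKM, 530 at 4-fold and 43 at 16-fold. The scalings lower every drop value and a pseudocount of 10 shrinks low values, by construction. The median log2 ratio of 3.84 was 2.36, 2.75 and 2.74 under those 3 scalings, 2.64 with a pseudocount of 10, 2.44 at 4-fold and 4.75 at 16-fold. The 20 members listed at 0 in WT became 8 with a pseudocount of 10, 39 with at least 10 FPKM in drop, 9 with at least 50, 56 with no filter and 9 without transcripts under 500 bases. The 13 peptide members became 7 at equal sums, 8 under each other scaling, 7 with a pseudocount of 10, 7 with at least 50 FPKM, 45 at 4-fold, 8 at 16-fold and 3 without transcripts under 500 bases. The members' share of FPKM, 0.752% in WT and 2.60% in drop, was 14.8% and 31.1% at 4-fold, 0.0154% and 0.230% at 16-fold, and 0.121% and 0.510% without transcripts under 500 bases. The median transcript length of the members minus that of rows with at least 20 FPKM in drop was -222.5 bases, and -805.5 for members past 8-fold at equal sums. For coding length it was -17 and -186 amino acids.

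Of the 50 members named by the rule, 16 stayed past 8-fold at equal sums, 31 after quantile normalization, 19 under the median-ratio scaling and 31 with a pseudocount of 10. Promoter motifs and amino acid composition were not analysed here.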

Other observations

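Because 4 members belong to the response to phosphate, 23 textbook genes of that response were looked up, a list chosen after the members had been seen. Of these, 10 reached 10 FPKM in a library, and 3 of the 10 are members, which were chosen for being higher. Of the 7 others, 5 were higher by 2-fold or more and 1 lower by as much, with a median log2 ratio of 2.04, where 45.3% of all rows at that level were higher. At equal sums the median of the 7 was 0.54, 3 of them were higher and 2 lower, and 8.64% of all rows were higher. PHI-1 is not on the list. Beside the members, the phosphatase gene PS2 (AT1G73010) was at 49.4 FPKM in wild type and 302 in the mutant, the phosphate transporter gene PHT1;4 (AT2G38940) at 164 and 675, PHF1 (AT3G52190), which helps such transporters leave the endoplasmic reticulum, at 7.02 and 53.3, and the non-coding RNA gene AT4 (AT5G03545) at 0.327 and 14.2. The galactolipid synthase gene MGD2 (AT5G20410) was at 53.1 and 199. The acid phosphatase gene PAP17 (AT3G17790) went the other way, at 67.1 and 20.7, GDPD1 (AT3G02040) was at 54.6 and 44.0, with a log2 ratio of -1.74 at equal sums, and the list genes IPS1, PHT1;1, NPC4 and PHO1 were listed at 0 in both libraries.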
